A study of Mus musculus with 2 samples.

Results

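The genes described here are 10 genes of Toll-like receptor signalling: the receptors Tlr1, Tlr2, Tlr3, Tlr4 and Tlr6, the coreceptor Cd14, the adaptors Myd88 and Ticam1, the kinase Irak1 and the ubiquitin ligase Traf6. They were taken by gene symbol from the deposited count files, where each of the 10 matched 1 of 51912 gene rows. RNA was measured in cultures of fibroblasts from mouse embryos (MEFs), connective tissue cells of C57BL/6 background. Both lines carried the SV40 T antigen, which blocks p53 and the RB proteins and lets cells grow without limit. The KS library came from a Usp16+/+ line and the UKS library from a Usp16-/- line, in which Cre had removed both floxed Usp16 alleles. Both lines had received adenovirus carrying Cre recombinase, so the control had been exposed to virus and Cre too. Usp16 encodes a deubiquitinase of histone H2A. Each group is 1 library of 1 cell line, so no test between the groups was possible, no p-value is given, and every difference describes these 2 libraries without a replicate check.

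Toll-like receptors are membrane proteins that bind microbial products and some molecules released from damaged cells. TLR2 pairs with TLR1 or TLR6 to bind bacterial lipoproteins, TLR4 binds lipopolysaccharide with the help of CD14 and MD-2, and TLR3 binds double-stranded RNA in endosomes. The adaptor MyD88 serves all of these receptors except TLR3 and passes the signal through IRAK kinases and the ubiquitin ligase TRAF6 to NF-kB, the transcription factor of many inflammatory genes. The adaptor TRIF, encoded by Ticam1, serves TLR3 and TLR4 and leads to type I interferon. Fibroblasts are known to carry several of these receptors and to make chemokines and cytokines when they are engaged.

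The totals were 26561637 estimated counts in KS and 23205746 in UKS. Levels are given as CPM, counts divided by the TMM-scaled library total and multiplied by the same constant, by which 1 count equalled 0.0379 CPM in KS and 0.0428 CPM in UKS. A gene was called measured when its mean over both libraries reached 1 CPM, which held for 13015 genes, and the ratio between libraries was log2((UKS + 1)/(KS + 1)), a scale that understates differences of low genes. Folds are ratios of CPM, and brackets hold exact 95% intervals that cover counting error only. Usp16 itself had 1195 counts in KS and 459 in UKS, and counts per gene do not show whether the remaining reads came from the deleted part. The lines also differed in sex chromosomes, with 6998 counts of Xist in UKS against 1 in KS, and 1511 counts of the Y-linked Ddx3y in KS against 1 in UKS. A difference that comes from the embryo or line of origin therefore cannot be told apart from one that comes with Usp16 deletion. Ratios across genes followed transcript length and GC content (Spearman's correlation across 12997 genes of -0.40 and 0.52; genes are not independent replicates), so the ratio with that trend removed is given where it changes a direction or a call.

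Of the 10 genes 8 were measured, and Tlr2 and Cd14 were the 2 that stood at least 2-fold higher in UKS. None of the 8 was at least 2-fold lower, and the other 6 lay within 2-fold. Of all measured genes 5.81% passed 2-fold upward and 10.7% downward, and the 25% of the 8 genes that passed it upward rests on 2 genes. The median log2 ratio of the 8 genes was 0.27, beside 0.03 over all measured genes, with 4 of the 8 above 0 and 4 below (51.9% and 48.1% of all measured genes). With the length and GC trend removed 2 were again higher and 0 lower, beside 5.52% and 4.98% of all genes, and the median was 0.31. The low genes were Tlr1 and Tlr6, the receptors that pair with TLR2.

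Promoter sequence is shown for Tlr2 as the receptor with the highest ratio, for Myd88 as the adaptor shared by most of the receptors, and for Traf6 as the gene with the lowest ratio among the 8. Each line is the longest run that lies in no GENCODE M21 exon, within the 250 bases before the RefSeq gene start on GRCm38.p6, read 5′ to 3′ on the strand of the gene. They cover chr3:83841768-83841858 (minus strand, 91 bases) for Tlr2, chr9:119340042-119340268 (minus strand, 227 bases) for Myd88 and chr2:101678170-101678419 (plus strand, 250 bases) for Traf6. Capitals mark matches to the kappa B motif in Tlr2 and to the interferon-response repeat (GAAA, any 2 bases, GAAA) in Myd88, and Traf6 has no match to either. The RefSeq start of Myd88 lies inside the longer GENCODE gene span given with its values, so its stretch also lies inside that span and inside the span of the neighbouring gene Acaa1a.
Tlr2: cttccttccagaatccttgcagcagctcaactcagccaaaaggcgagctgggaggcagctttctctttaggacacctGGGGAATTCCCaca
Myd88: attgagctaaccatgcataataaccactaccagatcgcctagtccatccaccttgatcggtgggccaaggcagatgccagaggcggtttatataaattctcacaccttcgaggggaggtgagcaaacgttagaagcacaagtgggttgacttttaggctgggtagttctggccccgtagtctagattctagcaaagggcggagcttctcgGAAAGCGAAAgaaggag
Traf6: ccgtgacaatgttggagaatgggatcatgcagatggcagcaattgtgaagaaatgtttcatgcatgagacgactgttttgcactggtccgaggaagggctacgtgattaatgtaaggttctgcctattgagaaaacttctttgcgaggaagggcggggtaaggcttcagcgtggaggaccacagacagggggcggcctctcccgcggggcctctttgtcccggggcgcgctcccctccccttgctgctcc
The RefSeq table held windows of 300 bases (250 before to 50 after the start) for 8 of the 10 genes; Tlr4 and Cd14 had no entry. Both strands were searched for the kappa B motif, for this repeat and for the AP-1 motif TGANTCA. The kappa B motif was found in the windows of Tlr2, Tlr3 and Irak1, 3 of 8 genes, while 9.55% of the 27025 genes in the table held it. In Tlr2 2 overlapping matches began at positions -173 and -172 from the start, and a further match began at -8. The single match in Tlr3 began at -211, and that in Irak1 at -18 or -21, depending on the start used. The interferon-response repeat was found in Myd88 at -40 and in Tlr6 at -116 and -110 on the other strand, beside 3.99% of all genes, and TGANTCA in none of the 8, beside 8.97%. Tlr2, Tlr3 and Irak1 shared the kappa B letters but had log2 ratios of 2.16, -0.18 and -0.02. A match describes letters in this window and is not evidence of binding.

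Tlr2, the receptor for bacterial lipoproteins, had the highest ratio of the 10 genes. It had 255 counts in KS and 1088 in UKS (9.66 and 46.6 CPM). UKS was thus the high library, 4.82-fold above KS [4.21 to 5.55], with a log2 ratio of 2.16 that was 2.11 with the trend removed. The gene (ENSMUSG00000027995) lies on chromosome 3, GRCm38 83836272 to 83841767, minus strand, with 3 exons in its longest coding transcript. Of the 4 measured genes within 500 kb of Tlr2 none passed 2-fold upward and 2 passed it downward, beside 5.81% and 10.7% of all measured genes. With so few genes the count says little about the region, and a regional effect was not tested.

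The partners of TLR2 were near the limit of detection. Tlr1 had 2 counts in KS and 3 in UKS, and Tlr6 had 16 and 10 (0.606 and 0.428 CPM). The ratio of Tlr6 was 0.707 with an interval from 0.287 to 1.66, and that of Tlr1 was 1.70 from 0.194 to 20.3, so a difference between libraries was not detectable at this depth for either gene. The 2 genes are neighbours on chromosome 5, minus strand, Tlr1 (ENSMUSG00000044827) at 64924679 to 64933563 and Tlr6 (ENSMUSG00000051498) at 64952031 to 64960097, with 18.5 kb between them. Their coding sequences were 77.0% identical over 2342 aligned bases, against 58.4% to 61.9% for the other 9 pairs of the 5 receptors. The longest identical run between the Tlr1 and Tlr6 transcripts was 229 bases, and 8.85% of the runs of 100 bases in Tlr1 also occur in Tlr6. Reads from such runs can be split between them, so their separate values are uncertain. No other pair, Tlr2 with any of the other receptors included, shared a run of 50 bases. The ratio of Tlr2 exceeded that of Tlr6 6.83-fold [2.87 to 17.0], a comparison within each library that does not depend on scaling. Against Tlr1 it was 2.84-fold, with an interval from 0.236 to 24.9 that includes equality.

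The receptor for lipopolysaccharide and its coreceptor differed in the size of their ratios. Cd14, a surface protein that hands lipopolysaccharide to the TLR4 complex and also serves TLR2, had 496 counts in KS and 1455 in UKS (18.8 and 62.3 CPM). UKS was 3.32-fold higher [2.99 to 3.68], with a log2 ratio of 1.68 that was 1.33 with the trend removed. The gene (ENSMUSG00000051439) lies on chromosome 18, 36725067 to 36726798, minus strand. Of 17 measured genes within 500 kb none passed 2-fold upward and 2 passed it downward, near the 5.81% and 10.7% of all measured genes.

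Tlr4 had 945 counts in KS and 594 in UKS (35.8 and 25.4 CPM). KS was the higher library, 1.41-fold [1.27 to 1.56], and the log2 ratio was -0.48. With the trend removed it was 0.29, on the other side of 0, so the data do not fix a direction for Tlr4. Its longest transcript has 4077 bases and a GC content of 39.4%, the lowest of the 10 genes. The gene (ENSMUSG00000039005) lies on chromosome 4, 66827584 to 66930284, plus strand. The ratio of Cd14 exceeded that of Tlr4 4.67-fold [4.03 to 5.41], and that of Tlr2 exceeded it 6.79-fold [5.70 to 8.08]. On the log2 scale these differences were 2.15 and 2.64, and 1.04 and 1.82 with the trend removed. Cd14 and Tlr2 therefore stood above Tlr4 in both versions.

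Tlr3, the endosomal receptor for double-stranded RNA, had 771 counts in KS and 599 in UKS (29.2 and 25.7 CPM). KS was 1.14-fold higher [1.02 to 1.27], a log2 ratio of -0.18 that was 0.56 with the trend removed, so its direction also depended on that step. The gene (ENSMUSG00000031639) lies on chromosome 8, 45395665 to 45411080, minus strand. An antisense gene model shares 381 exon bases with it but had no counts in either library.

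The adaptors Myd88 and Ticam1 were both modestly higher in UKS. Myd88 had 1077 counts in KS and 1416 in UKS (40.8 and 60.6 CPM), 1.49-fold higher [1.37 to 1.61]. Ticam1 had 368 and 522 (13.9 and 22.4 CPM), 1.60-fold higher [1.40 to 1.84]. Their log2 ratios of 0.56 and 0.64 were within 2-fold and became 0.21 and 0.32 with the trend removed. The ratio of Myd88 over that of Ticam1 was 0.927 [0.791 to 1.09], an interval that includes equality. Myd88 (ENSMUSG00000032508) lies on chromosome 9, 119335934 to 119341411, minus strand, and shares 290 exon bases with Acaa1a, a gene of fatty acid oxidation on the opposite strand that had 1931 counts in KS and 2683 in UKS. Without a stated strand setting, reads of the shared part cannot be assigned to either gene, and their part in the Myd88 ratio was not tested. Ticam1 (ENSMUSG00000047123) lies on chromosome 17, 56269319 to 56276786, minus strand.

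Of the signal carriers below MyD88, Irak1 was nearly level and Traf6 was lower in UKS. Irak1, a kinase recruited to MyD88, was the most abundant of the 10 genes by counts, with 2578 in KS and 2250 in UKS (97.7 and 96.4 CPM). Its ratio was 0.987 with an interval from 0.932 to 1.04, which includes equality. The gene (ENSMUSG00000031392) lies on the X chromosome, 74013914 to 74023918, minus strand, and was thus measured in a line with Xist reads and in a line with Y-linked reads. Of 27 measured genes within 500 kb of Irak1 1 was at least 2-fold higher and none lower, with a median log2 ratio of 0.16. Of all measured genes 5.81% were higher and 10.7% lower.

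Traf6, the ubiquitin ligase that activates the kinase TAK1, had 801 counts in KS and 427 in UKS (30.3 and 18.3 CPM). KS was 1.66-fold higher [1.47 to 1.87], a log2 ratio of -0.70. With the trend removed the value was -0.22. Its transcript of 6169 bases is the longest of the 10. The gene (ENSMUSG00000027164) lies on chromosome 2, 101678429 to 101701669, plus strand. As counted, the ratio of Irak1 exceeded that of Traf6 1.64-fold [1.43 to 1.87], but their log2 ratios differed by only 0.08 with the trend removed.

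**Figure D1:**
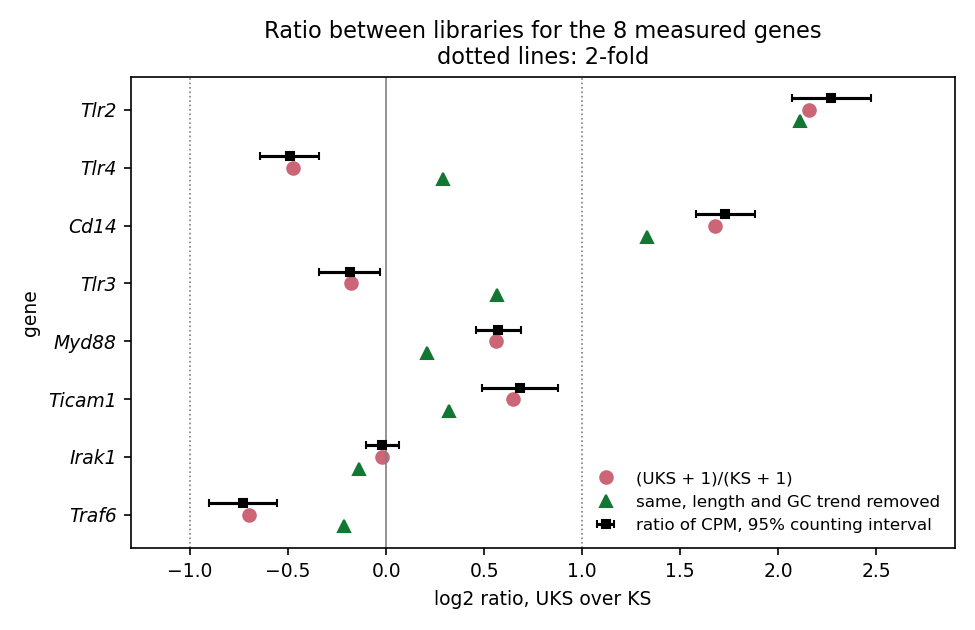
Log2 ratio of UKS over KS (x axis) for the 8 measured genes (y axis), as ratio of CPM with its 95% counting interval (squares), with the pseudocount of 1 CPM (circles) and with the length and GC trend removed (triangles). Tlr2 and Cd14 lie past the dotted line of 2-fold in each version, while the triangles of Tlr3 and Tlr4 lie on the other side of 0 from their circles.

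**Figure D2:**
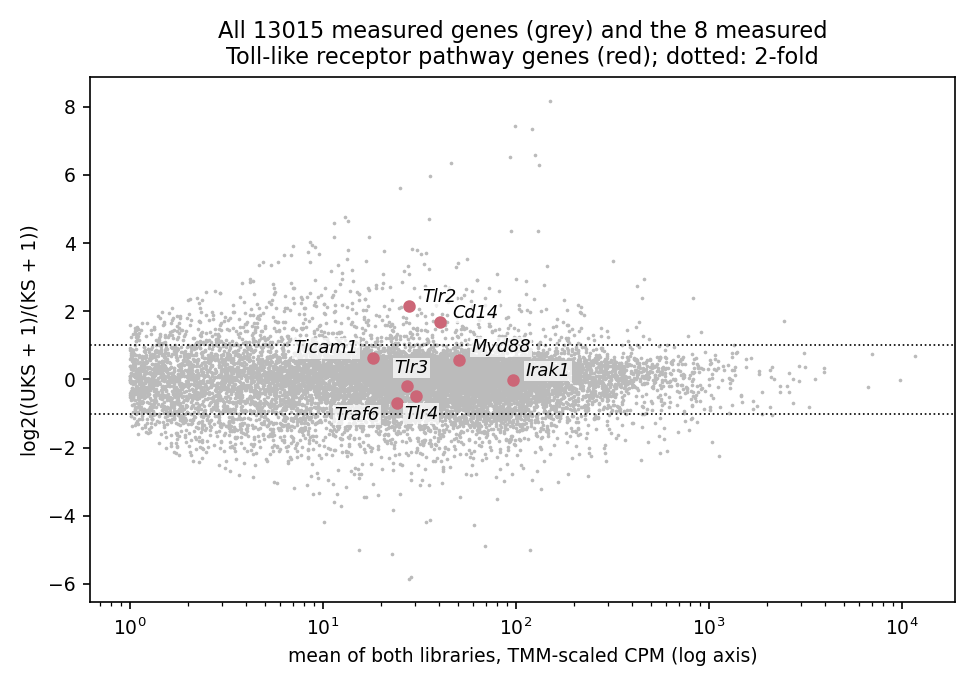
Log2 ratio (y axis) against the mean level of both libraries in CPM (x axis, log scale) for 13015 measured genes (grey points), with the 8 measured genes of Toll-like receptor signalling in red. Tlr2 and Cd14 lie above the upper dotted line of 2-fold, and the other 6 lie between the lines.

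Levels of different genes were compared per kb of the longest protein-coding transcript. In KS the order was Irak1 (25.5 CPM per kb), Myd88 (20.8), Cd14 (11.4), Tlr4 (8.78), Tlr3 (6.63), Traf6 (4.92), Ticam1 (4.66), Tlr2 (3.20), Tlr6 (0.165) and Tlr1 (0.0250). Among neighbours in this order the counting intervals of Traf6 and Ticam1 overlapped. In UKS the order was Cd14 (38.0 CPM per kb), Myd88 (30.9), Irak1 (25.1), Tlr2 (15.5), Ticam1 (7.47), Tlr4 (6.24), Tlr3 (5.82), Traf6 (2.96), Tlr6 (0.116) and Tlr1 (0.0425). Here Tlr4 and Tlr3 overlapped, and so did Tlr6 and Tlr1. Among the receptors Tlr4 stood 2.74-fold above Tlr2 per kb in KS, and Tlr2 stood 2.48-fold above Tlr4 in UKS. These levels still hold the length and GC trend. The log2 ratio of Tlr2 exceeded that of Tlr4 by 2.64 with the trend and by 1.82 with it removed, so the size of this change depended on that step. Tlr4 above Tlr2 in KS and Tlr2 above Tlr4 in UKS was also the order by coding length and by the mean length of the coding transcripts. Other places depended on the length used. By coding length Traf6 moved up to stand behind Myd88 and Irak1 in KS (19.0 CPM per kb), and Cd14 stood below Myd88 in UKS. Myd88 and Irak1 were nearly level in KS by that length (45.8 and 45.7 CPM per kb). By mean transcript length Tlr3, Tlr4 and Cd14 lay close together in KS (12.4, 12.0 and 11.4 CPM per kb), so their order there is not firm. Cd14 stood below Irak1 and Myd88 in UKS by that length.

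**Figure D3:**
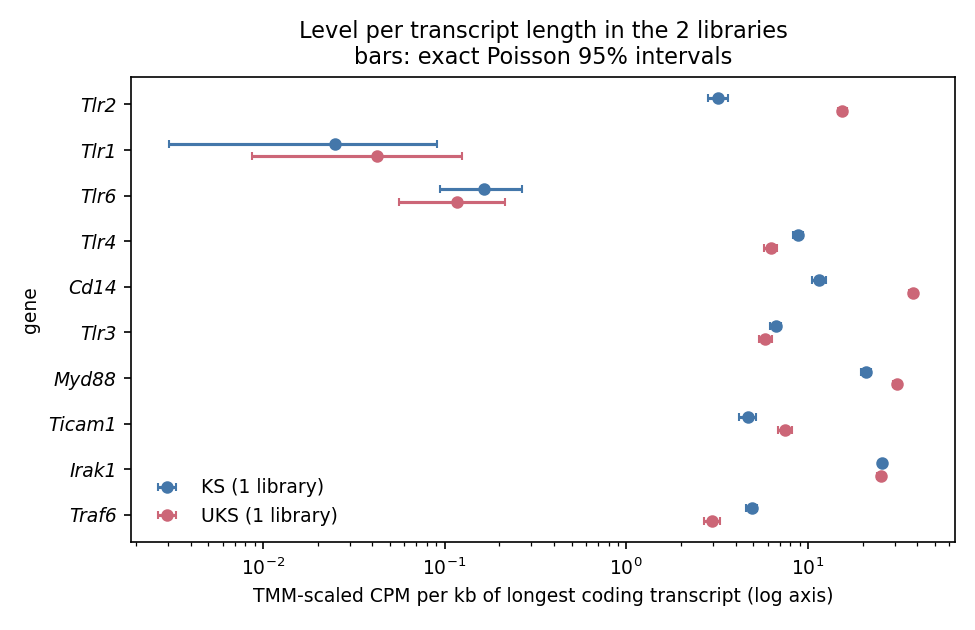
Level of the 10 genes (y axis) in CPM per kb of the longest protein-coding transcript (x axis, log scale) in KS and UKS, 1 library each, with exact Poisson 95% intervals. Tlr2 and Cd14 lie further right in UKS than in KS, and Tlr1 and Tlr6 lie below 0.2 CPM per kb in both libraries.

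The remaining receptors of the family were at or near 0. None of the 7 was measured. Tlr8, Tlr11, Tlr12 and Tlr13 had no counts in either library. The exact upper limits for 0 counts were 0.140 CPM in KS and 0.158 CPM in UKS. The floor of 3 counts, a setting used below, equals 0.114 CPM in KS and 0.128 CPM in UKS. Tlr5, the flagellin receptor, had 8 and 2 counts, Tlr7 2 and 9, and Tlr9 0 and 1. Tlr2, Tlr3 and Tlr4 were thus the measured receptors of the 12 genes examined.

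Proteins that carry ligand to the receptors or fold them did not share a direction. Of 14 listed coreceptors, carriers and chaperones 9 were measured, 1 at least 2-fold higher, 1 at least 2-fold lower and 7 within, with a median log2 ratio of 0.39. The shares of 11.1% upward and 11.1% downward rest on 1 gene each, beside 5.81% and 10.7% of all measured genes. The higher gene was Lbp, the serum protein that brings lipopolysaccharide to CD14, with 4 counts in KS and 250 in UKS (0.152 and 10.7 CPM), a ratio of 70.7 [27.3 to 261]. Lbp passed the filter on level only through UKS, and a gene this low in KS that passes it is past 2-fold by necessity. The upward share of this list was therefore fixed in advance by the filter and is not a result about the list. The lower gene was the raft protein Rftn1, 2.05-fold lower (1214 and 524 counts), a value that was within 2-fold on the log2 scale under total-count and upper-quartile scaling. Hsp90b1, the endoplasmic reticulum chaperone of most of these receptors, was 1.97-fold lower (988 and 502 CPM, log2 -0.98). Unc93b1, which takes nucleic acid receptors to endosomes, was 1.84-fold higher (11.1 and 20.3 CPM). Ly96, which encodes MD-2 and was named after its value was seen, had 57 and 73 counts, a ratio of 1.45 [1.01 to 2.08] and a log2 ratio of 0.39 that was 0.84 with the trend removed.

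The other adaptors and the kinases and ligases that receive their signal lay mostly within 2-fold. Of 4 further TIR adaptors 2 were measured, Tirap, which bridges MyD88 to TLR2 and TLR4 (30.4 and 22.6 CPM, log2 -0.41), and Sarm1 (31 and 44 counts, log2 0.41). Ticam2, the bridge between TRIF and TLR4, had 5 and 8 counts. All 22 listed kinases, ligases and scaffolds were measured, with 0 past 2-fold upward, 1 (4.5%) downward and a median of -0.29. Of all measured genes 5.81% passed it upward and 10.7% downward. With the trend removed 1 was higher, 0 lower and the median was -0.01. The lower gene was Tab3, a subunit of the TAK1 complex on the X chromosome, 3.71-fold lower (608 and 145 counts, log2 -1.74, and -0.93 with the trend removed). Its partner Tab2 was 1.74-fold lower (4620 and 2348 counts) and the ligase Peli1 1.59-fold (664 and 369 counts, log2 -0.64). With the trend removed Peli1 was at 0.10, so its direction depended on that step. Map3k8, a kinase that links TLR signals to ERK, had 90 and 175 counts, 2.20-fold higher by CPM, with a log2 ratio of 0.95 that was 1.09 with the trend removed.

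Inhibitors of the pathway included genes past 2-fold in both directions. Of 19 listed negative regulators 18 were measured, 5 at least 2-fold higher, 2 lower and 11 within, with a median of 0.40. These are 27.8% upward and 11.1% downward, beside 5.81% and 10.7% of all measured genes, so the downward share was near the background. Zc3h12a, an RNase that degrades inflammatory mRNA, was 7.18-fold higher [6.16 to 8.40] from 193 and 1225 counts. Bcl3, Tnfaip3, the ubiquitin-editing inhibitor A20 (168 and 506 counts, 3.41-fold), Traf1 (28 and 111 counts, 4.48-fold) and the A20-binding Tnip1 (900 and 2031 counts, 2.55-fold) were also higher. The deubiquitinase Cyld (1398 and 527 counts, 2.35-fold) and the autophagy adaptor Tax1bp1 (4204 and 1783 counts, 2.09-fold) were lower. With the trend removed 4 were higher, without Tnip1 (log2 0.97), and 0 lower, with Cyld at -0.39 and Tax1bp1 at -0.60.

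Genes that MyD88 signalling is known to induce were higher in UKS for the most part. These targets also answer to cytokines such as IL-1 and TNF, and they include genes already known from these libraries, so their counts do not show that Toll-like receptors were engaged. Of 22 listed targets 17 were measured, of which 15 (88.2%) passed 2-fold upward and 0 downward, with a median log2 ratio of 2.54, beside 5.81% of all genes upward. With the trend removed the count was again 15. Without the filter on level it was also 15, now out of all 22 listed targets, and the median of those with counts was 2.29. The genes added in that way are low in both libraries, and the pseudocount of 1 CPM holds them within 2-fold, so the unchanged count is no separate check. Lcn2, Saa3, Cxcl2, Nos2, Cxcl3 and Csf3 had at most 0.152 CPM in KS and passed that filter only through UKS. A gene this low in KS that passes the filter is past 2-fold by necessity, and targets low in both libraries drop out. Il6 and Cxcl5, each at 0.909 CPM in KS, with 5.70 and 33.7 CPM in UKS, also passed it only through UKS. At their level in KS the filter alone does not force 2-fold. The filter therefore fixed part of the 88.2% in advance. Lcn2 (4 and 4619 counts), Saa3 (4 and 2166), Cxcl1 (63 and 6126) and Nos2 (1 and 1168) had the highest log2 ratios with the pseudocount. The adhesion molecule Icam1 was 12.1-fold higher [9.95 to 14.8] from 111 and 1187 counts. Nfkbia, the NF-kB inhibitor induced by NF-kB itself, was 5.09-fold higher [4.62 to 5.62] from 508 and 2288 counts. The neutrophil growth factor Csf3 had 0 and 229 counts, and UKS was 86.3-fold higher when KS is set to the floor of 3 counts. The lower limit of the exact interval, which also covers counting error in UKS, was 69.6-fold. Il6 had 24 and 133 counts, a ratio of 6.27 [4.04 to 10.1], and the chemokines Cxcl2 (4 and 133 counts) and Cxcl3 (1 and 104 counts, a ratio of 118 from 20.6 to 4689) were close to undetected in KS. Ptgs2 and Ccl2 were each 2.32-fold higher and Nfkbiz 2.78-fold, and Cxcl5 and Mmp3 completed the 15. Vcam1 (105 and 117 CPM) and Ccl7 (38.5 and 45.6 CPM) lay within 2-fold. The cytokines that usually lead a macrophage response were not measured: Il1b had no counts, Il1a 1 and 0, and Tnf 0 and 10.

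Of 12 listed genes induced through TRIF and interferon 10 were measured, 4 at least 2-fold higher, 0 lower and 6 within, with a median of 0.79. The 40% upward stands beside 5.81% of all measured genes. The chemokines Ccl5 (278 and 1767 counts, 7.19-fold [6.33 to 8.19]) and Cxcl10 (1100 and 4012 counts, 4.12-fold) led, followed by Irf7 (2.83-fold) and Isg15 (2.28-fold). Isg15 was within 2-fold with the trend removed (log2 0.75). Of the 10 measured genes 8 had a log2 ratio above 0 and 2 below. The 2 below, named after their values were seen, were Ifit1 and Ifit2. Ifit1 (7813 and 6377 counts) was at log2 -0.12, and 0.19 with the trend removed. Ifit2 (2082 and 1068 counts) was 1.72-fold lower. Ifnb1, the interferon gene itself, had 4 and 7 counts, with a ratio of 1.98 from 0.503 to 9.22, so a difference was not detectable.

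Several proteins of the matrix or of damaged cells have been described as ligands of these receptors. Of 14 listed genes 9 were measured, and 1 passed 2-fold upward and 3 downward, with 0.20 as the median. These are 11.1% upward and 33.3% downward, beside 5.81% and 10.7% of all measured genes, and they rest on few genes. The proteoglycan Dcn was the higher gene (679 and 6209 counts). The proteoglycan Vcan (19989 and 4992 counts, 3.54-fold), the matrix glycoprotein Tnc (23953 and 6275, 3.38-fold) and the mitochondrial chaperone Hspd1 (16234 and 7113, 2.02-fold) were lower. Hspd1 lay at the threshold (log2 -1.01), and under total-count and upper-quartile scaling only 2 of the 3 were past 2-fold. Trend removal gave 2 higher and 1 lower: Lum (25 and 52 counts, named after its value was seen) joined Dcn, and only Tnc of the 3 stayed past 2-fold. S100a9 and Mmrn1 had no counts and S100a8 had 0 and 5.

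**Figure D4:**
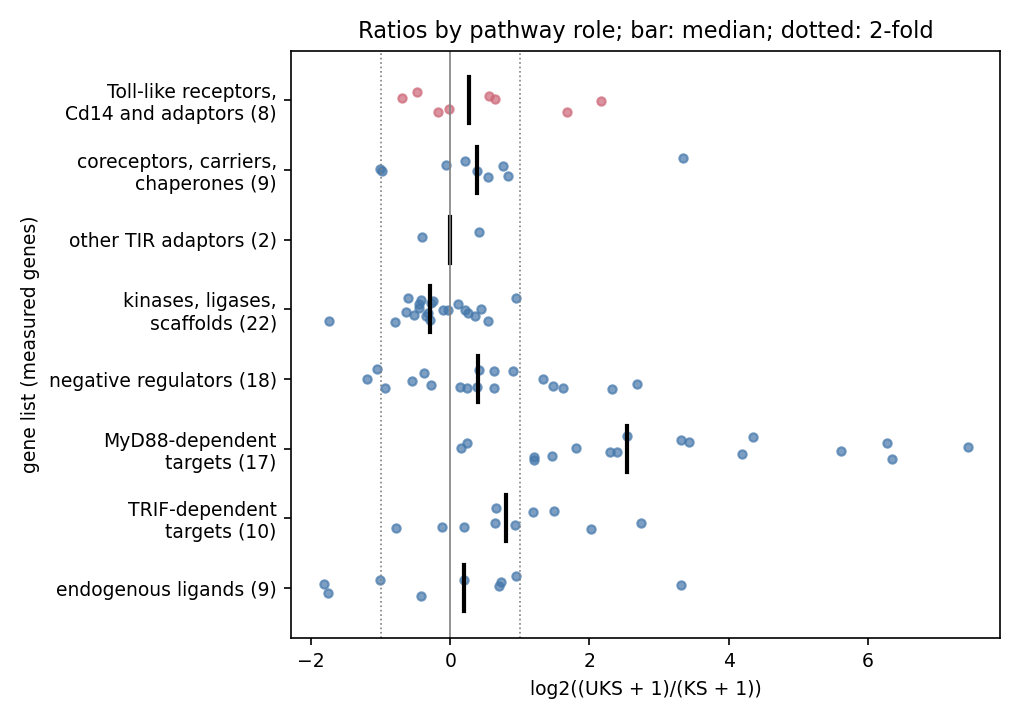
Log2 ratio of UKS over KS (x axis) of each measured gene (points) by pathway role (y axis, number of genes in brackets), with the median as a bar and 2-fold as dotted lines. The MyD88-dependent targets have the median furthest to the right (2.54), while the medians of the receptor and adaptor genes (0.27) and of the kinases, ligases and scaffolds (-0.29) lie near 0. Some of these targets, Cxcl2 at the median included, passed the filter on level only through UKS, and without that filter their median was 2.29.

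Cd14 and several of these receptors are abundant in macrophages, so markers of other cells were read in both libraries. Of 16 macrophage and monocyte markers 2 were measured, Cd68 (154 and 113 counts), which many cells express, and Coro1a (24 and 59 counts, log2 0.89). The defining markers Adgre1, Tyrobp, Fcer1g, Spi1 and C1qa had no counts in either library, Ptprc had 2 and 1 and Csf1r 7 and 8. The 16 markers summed to 8.30 CPM in KS and 8.39 CPM in UKS, of which Cd68 alone made up 5.83 and 4.84 CPM. Coro1a was 2.78-fold higher in UKS [1.70 to 4.67], and its log2 ratio was 0.40 with the trend removed. Mrc1, named after its value was seen and below the filter, went the other way. It had 23 and 7 counts and was 2.91-fold higher in KS [1.21 to 8.02]. The part of macrophages in the levels of Cd14 and Tlr2 was not tested. The lymphocyte markers Cd3e, Cd3g, Cd4, Cd8a, Ms4a1 and Nkg7 were at 0 in both libraries. Of 9 neutrophil and mast cell markers 6 were at 0 in both (S100a9, Csf3r, Mpo, Cpa3, Elane and Mcpt4), with 6 and 8 counts in all. Endothelial markers summed to 3.79 and 3.64 CPM, most from Kdr (38 and 19 counts) and Vwf (26 and 35), and epithelial markers to 19.9 and 12.9 CPM, most from Krt19 (423 and 266 counts) and Krt18 (78 and 18), the latter at least 2-fold lower in UKS.

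The fibroblast markers were led by Vim (4205 and 2413 CPM) and Col1a2 (2176 and 1202 CPM), and all 10 fibroblast markers were measured. Of these 10, Thy1, Pdgfra and Fap were at least 2-fold lower in UKS and Dcn was higher. These are 30% downward and 10% upward, beside 10.7% and 5.81% of all measured genes. With the trend removed Fap was within 2-fold (log2 -0.71) and Vim was past it (-1.14). The 10 summed to 9895 CPM in KS and 6670 CPM in UKS. The part of this difference in the levels of the receptor genes was not tested. In bulk RNA, fewer cells that carry a transcript and less of it per cell cannot be told apart.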

How the data were processed

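RNA of 2 mouse embryonic fibroblast libraries, 1 per group, was compared. TRIzol extraction and a TruSeq RNA library kit were used, per the labels' protocols. Per the submitters' processing notes, HISAT2, StringTie and the build GRCm38.p5 were involved, but no role or version is stated. Not given in the sources used here are the counting program, annotation, read length and strand setting. The deposited files hold estimated counts for each gene without depth scaling, of which 23.1% (KS) and 21.5% (UKS) of those above 0 were not whole, and all were rounded.

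TMM factors came from edgeR 4.0.16 in R 4.3.3. The ratio used a pseudocount of 1 CPM and a filter at a mean of 1 CPM, and 2-fold is a size, not a test. Intervals are exact (Clopper-Pearson for ratios, Poisson for counts, conditional odds ratio between genes; scipy 1.17.1) at 95%. Differences of 7 gene pairs were computed. Coordinates, lengths and GC content came from GENCODE M21 (GRCm38), in which 51719 of 51912 identifiers were found, and promoters from RefSeq (GRCm38.p6). Coding sequences were aligned globally with Biopython 1.88. The length and GC trend was a robust cubic regression (statsmodels 0.14.6) on 12881 genes outside the lists. Real differences that follow these properties are removed with it. The steps were tested on simulated counts. Other scalings, pseudocounts, filters, lengths and a 1.5-fold threshold were tried.

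The genes and lists were chosen with earlier results of these data known. Named were the 10 genes, in each list every gene past 2-fold and up to 4 with the largest absolute ratio, the 2 most abundant markers per cell type and those at 0, line checks and overlapping genes. Of the marker symbols 1 matched several rows and was left out. The genotypes given are incomplete: an additional engineered change that KS and UKS share, and part of the marker results, are not reported here.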

Additional observations from a re-analysis of the deposited data

How the results depend on the processing

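No paired analysis was possible because each group has 1 library, and for the same reason no library could be left out. Under the other scalings, pseudocounts of 0.5 and 0.1 CPM, a filter at 5 CPM, no filter and unrounded counts, Tlr2 and Cd14 stayed at least 2-fold higher and no other of the 10 genes passed 2-fold. At a threshold of 1.5-fold 3 of the 8 measured genes were higher and 1 lower, and over all genes 2001 were higher and 2745 lower. Without a filter, which adds Tlr1 and Tlr6, the median of the 10 genes was 0.025. With the length and GC trend removed 647 genes were at least 2-fold lower, against 1396. In the coreceptor list the count lower was 2 with DESeq2 size factors and 0 with total counts or the upper quartile, and its median was 0.51 with a pseudocount of 0.1 CPM and 0.21 without a filter. In the kinase list 1 gene was higher with a pseudocount of 0.5 or 0.1 CPM, and with the trend removed 1 was higher, 0 lower and the median was -0.0078. For the negative regulators the trend-removed count lower was 0 and the median 0.22. For the MyD88-dependent targets the median was 3.25 and 4.50 with pseudocounts of 0.5 and 0.1 CPM, 3.32 with a filter at 5 CPM and 2.29 without a filter. For the TRIF-dependent targets it was 0.65 without a filter and 0.60 with the trend removed. For the endogenous ligands 2 were higher with a pseudocount of 0.1 CPM, and 2 were lower with total counts or the upper quartile. Trend removal gave 2 higher and 1 lower in that list. Its medians were 0.16 without a filter, -0.11 at 5 CPM and 0.15 with the trend removed. Depth limits Tlr1 and Tlr6, whose counts of at most 16 leave intervals that include equality.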
